A study of Mus musculus with 40 samples.

Results

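The 8 genes described here mark tissue macrophages and were followed through 40 RNA-seq libraries of sorted mouse blood stem cells and progenitors: C1qa, C1qb, C1qc, Cd5l, Mrc1, Adgre1, Vcam1 and Slc40a1. They were chosen by name, as a sign of macrophage material that clings to sorted cells, and each of the 8 has a row in all 6 deposited tables, which together list 30365 gene symbols. The cells came from C57BL/6 bone marrow and were haematopoietic stem cells (HSCs) or multipotent progenitors (MPPs), labelled WT or HIRA KO, and the groups ask what loss of HIRA, a chaperone that deposits histone H3.3, does in them. In the first cohort, 2500 cells a library were sorted 1 week after the first of 2 doses of 20 µg poly(I:C), with 4 WT and 4 labelled KO libraries of each cell type. In the second cohort, the KO mice carried Mx1-Cre with Hirafl/fl, and H2B-GFP came from TetOP-H2B-GFP driven through Rosa26-M2rtTA. Doxycycline at 2 mg/ml, in water sweetened with sucrose at 10 mg/ml, was given for 6 weeks. The mice of this cohort also received 2 doses of 20 µg poly(I:C). Cells were sorted as H2B-GFP high or low after a chase of 17 days, when the last dose of poly(I:C) lay 15 days back. There were 3 WT and 3 labelled KO libraries in each of 4 populations. The labels do not spell out which of these alleles the WT mice carried. Mx1-Cre is switched on by interferon in many blood and non-blood cells, macrophages included, so the deletion it drives is not limited to stem cells, and every mouse, WT or KO, received the interferon inducer.

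Macrophages of bone marrow engulf spent red cells and expelled red cell nuclei, return the iron to the blood and hold progenitors in place through adhesion molecules. C1q, the first component of the classical complement pathway, is made from the products of C1qa, C1qb and C1qc, and unlike most complement proteins it comes largely from macrophages and related cells. CD5L is a secreted protein of resident macrophages, MRC1 the mannose receptor, ADGRE1 the F4/80 antigen, VCAM1 an adhesion molecule bound by integrins of progenitors, and SLC40A1 ferroportin, the exporter of iron. VCAM1 and ferroportin are also found outside macrophages, VCAM1 on stroma and endothelium and ferroportin on erythroid cells.

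On GRCm38 (mm10) the C1q genes lie together on the minus strand of chromosome 4, between 136880129 and 136898803. C1qb spans 136880129 to 136886187, C1qc 136889804 to 136893065 and C1qa 136895917 to 136898803. Cd5l lies on chromosome 3 from 87357881 to 87371073, on the plus strand, and Vcam1 on the same chromosome from 116109949 to 116129688, on the minus strand. Mrc1 is on chromosome 2 (14229392 to 14332057), Adgre1 on chromosome 17 (57358691 to 57483527) and Slc40a1 on chromosome 1 (45908068 to 45926523). In GENCODE, 6 of the 8 genes overlap no other gene. Vcam1 overlaps the antisense gene Gm43109, and Mrc1 holds the microRNA gene Mir511. Whether the libraries keep the strand is not stated, so reads of Vcam1 and its antisense partner cannot be told apart.

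Promoters are shown for C1qb, the most abundant of the 8, and for Cd5l, a gene of resident macrophages. Of the 8 genes, 4 had an entry in the RefSeq promoter table (GRCm38.p6): C1qb, C1qc, Cd5l and Mrc1. The 250 bases before the RefSeq start site are printed for C1qb at chr4:136886201-136886450 (minus) and Cd5l at chr3:87357631-87357880 (plus), 5′ to 3′ on the gene's strand. The windows of C1qc and Mrc1 reach into the GENCODE gene, whose start differs from that of RefSeq, and are not printed. Capitals mark GAGGAA or its reverse complement TTCCTC, the core bound by the macrophage factor PU.1, and TGCTGA or TCAGCA, a half-site of MAF factors, searched on both strands. These motifs do not overlap each other in the printed windows.
C1qb: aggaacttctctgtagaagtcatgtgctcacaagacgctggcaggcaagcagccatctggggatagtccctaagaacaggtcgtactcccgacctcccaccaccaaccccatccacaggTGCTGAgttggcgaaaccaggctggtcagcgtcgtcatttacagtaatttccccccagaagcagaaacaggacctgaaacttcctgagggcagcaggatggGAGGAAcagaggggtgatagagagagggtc
Cd5l: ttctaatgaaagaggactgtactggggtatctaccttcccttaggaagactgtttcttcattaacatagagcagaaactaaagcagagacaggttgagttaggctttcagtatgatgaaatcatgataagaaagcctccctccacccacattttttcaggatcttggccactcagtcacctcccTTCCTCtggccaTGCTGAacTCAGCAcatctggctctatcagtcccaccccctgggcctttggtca
The motifs were picked from general knowledge after the values of the 8 genes were known. The PU.1 core was present in all 4 windows, and 23.3% of all 32851 promoters listed hold it in a window of the same length. The MAF half-site was present in C1qb, 1 match, and in Cd5l, 2 matches, against 16.1% of all promoters. Both motifs stood together in C1qb and Cd5l, as they do in 3.7% of all promoters. A match describes letters in a window and not a bound site.

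Recovered from the steps of the values, the depth was 18.28 to 32.53 M reads (M, 1000000) a library in the first cohort and 5.87 to 9.65 M in the H2B-GFP cohort. The libraries have no molecular identifiers, so limits drawn from read numbers cover counting error only. Error from amplification comes on top and is not in them. Hira itself stood between 0.72 and 3.22 FPKM and its groups overlapped in all 6 tables. That value sums all exons and cannot tell a floxed allele from a deleted one, so it leaves the labels unchecked. The 12 genes of the HSC list were all past the filter in HSCs. Labels do not say which libraries share a mouse, and p-values measure the spread between these libraries. In bulk RNA, fewer macrophages or fragments and less RNA in each cannot be told apart. Values are scaled within each table, so levels are set side by side and compared only within a table.

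**Figure D1:**
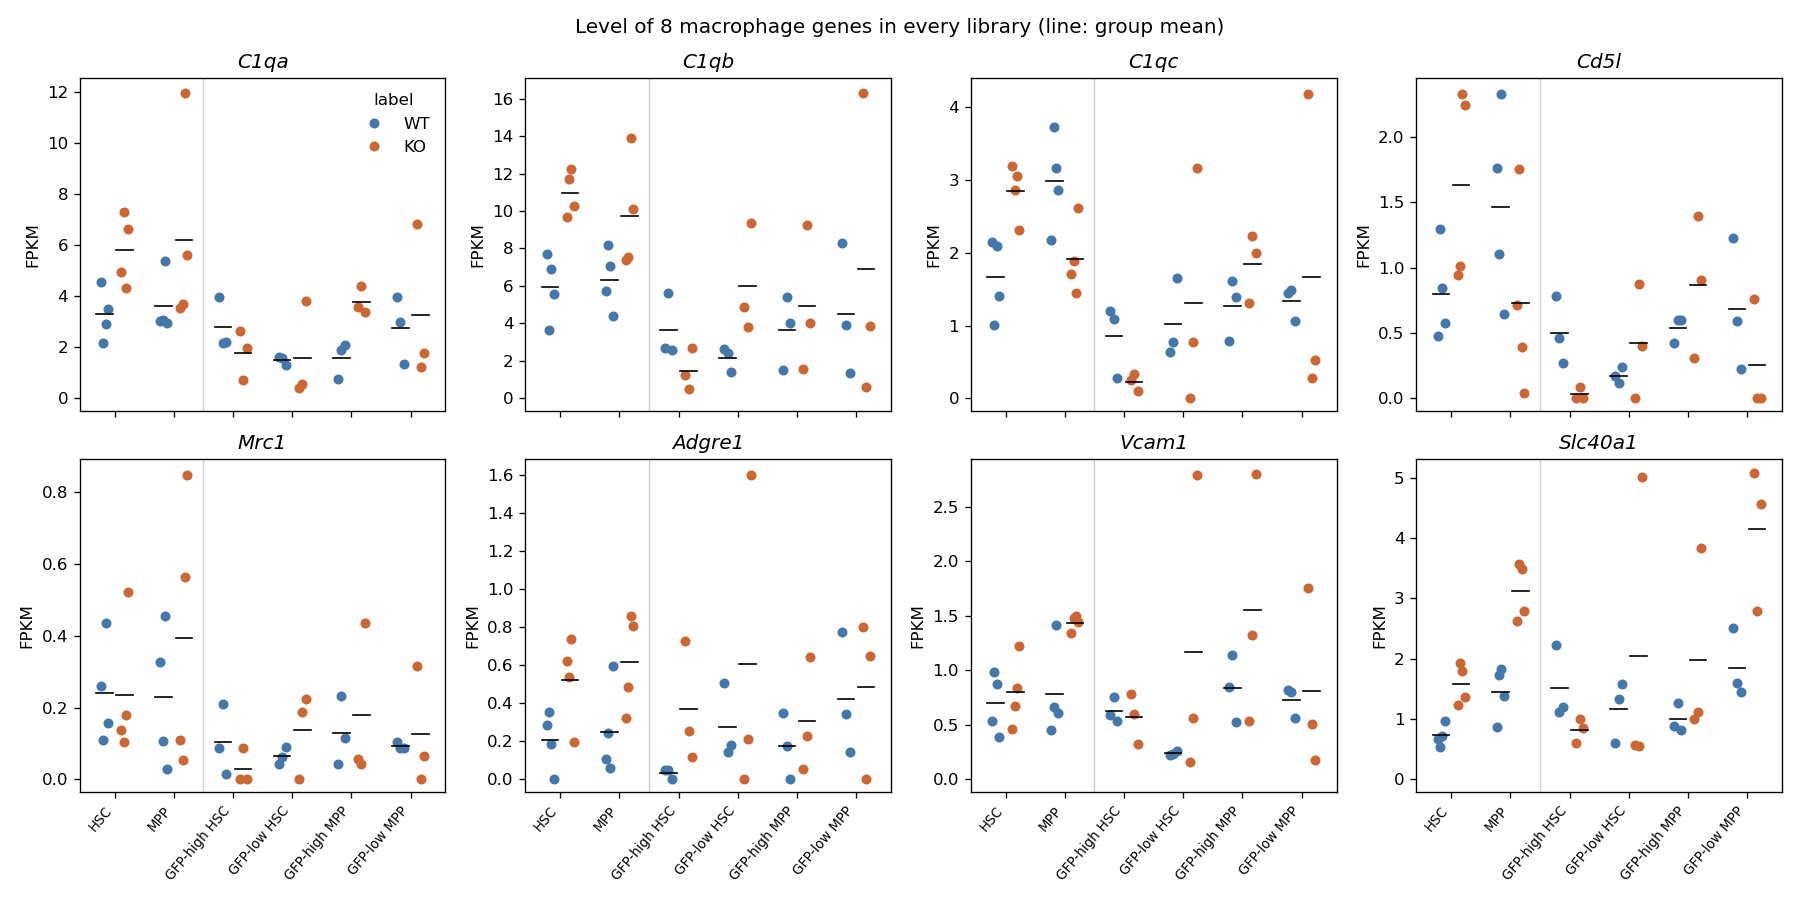
FPKM of each of the 8 genes (1 panel a gene, linear axes of different height) in every library of the 6 populations, blue for WT and orange for labelled KO, with a black line at each group mean. The C1q chains and Slc40a1 reach several FPKM, whereas Mrc1 stays under 1 FPKM in all 40 libraries. Several of the highest points are single labelled KO libraries.

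C1qb was the most abundant of the 8 in most libraries, C1qa, C1qc and Slc40a1 came next, and the other 4 stood mostly under 1 FPKM. The mean of Slc40a1 was above that of C1qc in 8 of 12 groups. C1qb was the highest of the 8 in 32 of 40 libraries, Slc40a1 in 4, C1qa in 3 and C1qc in 1. At least 1 FPKM was reached by C1qb in 38 libraries, by C1qa in 36, by C1qc in 29, by Slc40a1 in 27, by Vcam1 in 11, by Cd5l in 10, by Adgre1 in 1 and by Mrc1 in 0. Of the 320 values, 15 were listed at 0, and all of these belonged to Adgre1 (5), Cd5l (5), Mrc1 (4) and C1qc (1). The FPKM worth of 3 reads is 0.0402 to 0.158 FPKM of Cd5l, 0.0252 to 0.0992 of Adgre1 and 0.0129 to 0.0504 of Mrc1, and a count of 0 allows a level of up to that of 3 reads in its library. The order C1qb above C1qa above C1qc held in 31 of 40 libraries. FPKM is per length of the gene, so this order is one of levels per base.

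None of the 8 genes, where tested, passed the test between labelled KO and WT in any of the 6 populations (limma, Benjamini-Hochberg adjusted p under 0.05 over all genes tested in the table). In HSCs 5 of the 8 passed the filter on low values and 0 were called, where 0.124% of all tested genes were called. In MPPs 6 were tested and 0 called, against 0.108%. The counts in HSCs were 0 of 3 for GFP-high cells (0.0276% of all genes) and 0 of 3 for GFP-low cells (0%), and in MPPs 0 of 5 for GFP-high (0%) and 0 of 4 for GFP-low cells (0.32%). At an unadjusted p under 0.05 stood 5 of the 5 tested in HSCs, where 1383 of all 13717 tested genes did, and 4 of the 6 in MPPs, where 2305 of 13916 did. In each GFP population 1 did. Among GFP-high cells 1124 of 10850 genes (HSCs) and 765 of 10789 (MPPs) reached that level, and among GFP-low cells 917 of 10705 (HSCs) and 1304 of 10621 (MPPs). These counts cover genes past the filter, so they are given as a description. Slc40a1 passed it in HSCs only through its higher labelled KO libraries, and in GFP-high HSCs only through its higher WT libraries. Vcam1 passed it in MPPs through all 4 labelled KO libraries and 1 WT library, and Cd5l in HSCs through 3 and 1. The counts in HSCs and MPPs thus lean in part on genes kept by their higher labelled KO libraries.

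**Figure D2:**
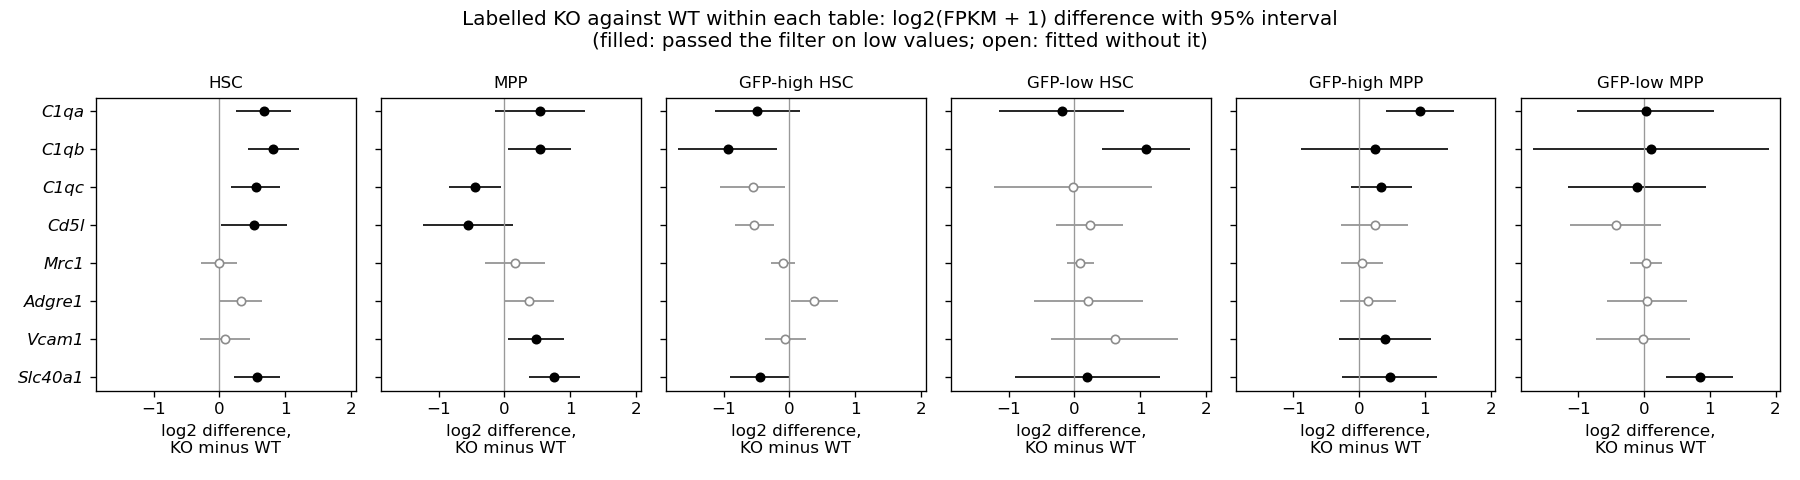
Difference of mean log2(FPKM + 1), labelled KO minus WT, for each gene (rows) in each population (panels), with limma's 95% interval. Filled points passed the filter on low values and open points were fitted without it. Before adjustment the intervals of C1qb, Vcam1, Slc40a1 and Adgre1 (open) lie above 0 in MPPs and that of C1qc below 0. Vcam1 passed the filter in MPPs mostly through the labelled KO libraries. In HSCs the intervals of the C1q chains, Cd5l, Slc40a1 and Adgre1 (open) lie above 0, though Slc40a1 passed the filter there only through the labelled KO libraries. In GFP-high HSCs Slc40a1 passed it only through the WT libraries. The intervals of C1qb and, open, of C1qc and Cd5l lie below 0 there, and that of Adgre1 (open) above 0. Above 0 also lie those of C1qb in GFP-low HSCs, C1qa in GFP-high MPPs and Slc40a1 in GFP-low MPPs.

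In HSCs of the first cohort the C1q chains stood higher in the labelled KO libraries. C1qb was at 7.69, 3.64, 6.92 and 5.54 FPKM in WT replicates 1 to 4 and at 9.68, 11.7, 12.2 and 10.3 in labelled KO. Every labelled KO library lay above every WT library. The means were 5.95 ± 1.78 and 11.0 ± 1.19 FPKM (SD, n = 4 each), a log2(FPKM + 1) difference of 0.82 (95% interval 0.43 to 1.21, limma's adjusted p = 0.130). C1qc was at 2.14, 1.00, 2.10 and 1.41 FPKM in WT and 3.19, 2.86, 3.05 and 2.31 in labelled KO. Its groups did not overlap either, and the log2 difference was 0.55 (interval 0.18 to 0.92, adjusted p = 0.282 by limma). C1qa was at 4.55, 2.18, 2.91 and 3.51 FPKM in WT and at 4.96, 7.31, 4.32 and 6.64 in labelled KO. The WT library at 4.55 lay above the labelled KO library at 4.32, and the log2 difference was 0.67 (interval 0.25 to 1.09, adjusted p = 0.242 by limma). Between 47 and 363 reads stood behind each of these values.

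Among all genes of the HSC table, 2.36% had every labelled KO library above every WT library, and of the 8 macrophage genes 3 did: C1qb, C1qc and Slc40a1. The mean was higher in labelled KO for 7 of the 8, and for 52.4% of all genes. The median log2 difference of the 8 was 0.54, beside 0.01 for all genes. Their summed level ran from 10.1 to 16.6 FPKM in WT and from 21.2 to 26.1 in labelled KO.

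In MPPs the 3 chains did not move together. C1qa was at 3.04, 3.06, 5.37 and 2.94 FPKM in WT and at 3.55, 3.70, 12.0 and 5.61 in labelled KO. C1qb was at 5.74, 8.16, 7.06 and 4.39 FPKM in WT and at 7.40, 7.56, 13.9 and 10.1 in labelled KO. Both overlapped between the groups, and labelled KO replicate 3 had the highest value of each. The log2 difference was 0.54 for C1qa (interval -0.14 to 1.22, adjusted p = 0.416 by limma). It was also 0.54 for C1qb (interval 0.06 to 1.01, adjusted p = 0.252 by limma). Without labelled KO replicate 3 they were 0.21 and 0.37.

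C1qc, by contrast, was at 2.18, 3.73, 3.17 and 2.86 FPKM in WT MPPs and at 1.71, 1.88, 1.44 and 2.62 in labelled KO. In all, 3 of the 4 labelled KO libraries lay below all WT libraries, and the log2 difference was -0.45 (interval -0.85 to -0.06, adjusted p = 0.248 by limma). The library with the most C1qa and C1qb, labelled KO replicate 3, had the least C1qc of all 8. The level of C1qb over that of C1qc was 1.54 to 2.63 in WT MPPs and 3.86 to 9.63 in labelled KO MPPs, with no overlap, and 3.30 to 3.93 and 3.03 to 4.46 in HSCs. This ratio was singled out after its values were seen and was not tested. As a difference of KO effects, HSCs minus MPPs, C1qc gave 1.00 on the log2 scale (interval 0.49 to 1.52, adjusted p = 0.313 by limma) and C1qb 0.28 (interval -0.35 to 0.91, adjusted p = 0.871). None of the 5 macrophage genes in that test was called, against 0.0076% of all genes.

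**Figure D3:**
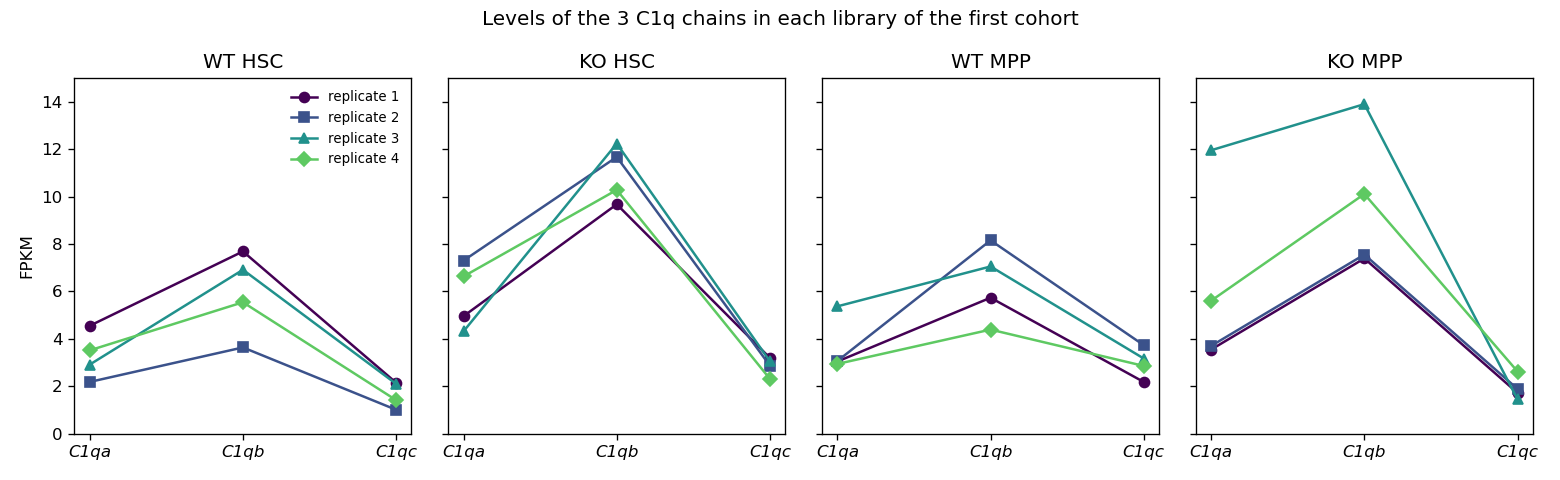
FPKM of C1qa, C1qb and C1qc in each library of the first cohort, with 1 line a library and 1 panel a group on a shared linear axis. In HSCs the lines of the labelled KO libraries have the shape of the WT lines at a higher level. In labelled KO MPPs replicate 3 leaves the others, at 12.0 FPKM of C1qa and 13.9 of C1qb but 1.44 of C1qc.

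In the H2B-GFP cohort the chains rested on fewer reads and followed no single direction. In GFP-high HSCs C1qb was at 2.71, 5.61 and 2.60 FPKM in WT and at 1.26, 0.509 and 2.67 in labelled KO. A single labelled KO library lay within the WT range, and the log2 difference was -0.94 (interval -1.70 to -0.18, adjusted p = 0.388 by limma). In GFP-low HSCs the order was the other way, with C1qb at 2.64, 2.45 and 1.42 FPKM in WT and 4.88, 3.82 and 9.35 in labelled KO. There the groups did not overlap, and the log2 difference was 1.09 (interval 0.43 to 1.76, adjusted p = 0.373 by limma). The difference of the KO effects, GFP-low minus GFP-high, was 2.03 (interval 0.95 to 3.11, adjusted p = 0.999 by limma), and 0 of 3 macrophage genes were called in it, as were 0% of all genes.

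C1qa did not follow C1qb in GFP-low HSCs. It stood at 1.64, 1.58 and 1.30 FPKM in WT and at 0.399, 0.571 and 3.81 in labelled KO, the lowest of these resting on 5 reads (exact Poisson 95% interval 1.62 to 11.7 reads). Labelled KO held both the lowest and the highest values, and the log2 difference was -0.19 (interval -1.14 to 0.76). C1qc was listed at 0 in labelled KO replicate 1 of that population, where 3 reads are 0.129 FPKM, and at 3.16 FPKM in replicate 3. In GFP-high HSCs C1qa was at 3.98, 2.18 and 2.19 FPKM in WT and at 2.64, 0.71 and 1.96 in labelled KO, with overlapping groups. C1qc was at 1.19, 1.09 and 0.283 FPKM there in WT and at 0.254, 0.335 and 0.10 in labelled KO, and these groups overlapped too.

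In GFP-high MPPs C1qa was at 0.765, 1.89 and 2.11 FPKM in WT and at 3.57, 4.40 and 3.40 in labelled KO. The groups did not overlap, with a log2 difference of 0.93 (interval 0.41 to 1.44, adjusted p = 0.470 by limma). C1qb ranged from 1.52 to 5.42 FPKM in WT and from 1.58 to 9.26 in labelled KO, and C1qc from 0.79 to 1.61 and from 1.31 to 2.23. Both overlapped. In GFP-low MPPs C1qb was at 8.32, 3.90 and 1.37 FPKM in WT and at 16.3, 0.591 and 3.87 in labelled KO. The highest and the lowest of these 6 libraries were both labelled KO, and the mean log2 difference of 0.10 had an interval of -1.69 to 1.89. Without labelled KO replicate 1 it was -0.77, and that of C1qa moved from 0.02 to -0.53. The difference of KO effects in MPPs, GFP-low minus GFP-high, was -0.90 for C1qa (interval -2.14 to 0.34, adjusted p = 0.999 by limma), with 0 of 4 macrophage genes and 0% of all genes called.

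Cd5l, the secreted protein of resident macrophages, was near the limit of the filter. In HSCs it stood at 0.477, 1.30, 0.846 and 0.576 FPKM in WT and 0.942, 1.01, 2.33 and 2.25 in labelled KO. A single WT library lay within the labelled KO range, and the log2 difference was 0.53 (interval 0.02 to 1.03, adjusted p = 0.476 by limma). In MPPs the values were 1.77, 1.10, 2.33 and 0.644 FPKM in WT and 0.719, 1.75, 0.394 and 0.0424 in labelled KO, with a log2 difference of -0.55 (interval -1.24 to 0.14). Cd5l was thus higher in labelled KO HSCs and lower in labelled KO MPPs by mean, as C1qc was, and the difference of these effects was 1.08 (interval 0.22 to 1.94, adjusted p = 0.536 by limma). It passed the filter in HSCs through 3 labelled KO libraries and 1 WT library. Of the GFP populations, GFP-high HSCs held 0.782, 0.461 and 0.269 FPKM in WT against 0, 0.0907 and 0 in labelled KO, the last 3 resting on 2 reads at most. There the groups did not overlap, at a level where Cd5l was not tested.

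Mrc1, the mannose receptor, was under 1 FPKM in every library. Its highest value was 0.848 FPKM, from 188 reads in labelled KO MPP replicate 4. HSCs held 0.259, 0.110, 0.435 and 0.157 FPKM in WT and 0.138, 0.104, 0.179 and 0.523 in labelled KO. The groups overlapped in all 6 tables, and the gene passed the filter in none.

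Adgre1, which encodes F4/80, was at 1 FPKM or more in a single library, labelled KO replicate 3 of GFP-low HSCs, at 1.60 FPKM from 51 reads. In HSCs it stood at 0.287, 0.356, 0.187 and 0 FPKM in WT and 0.620, 0.539, 0.737 and 0.198 in labelled KO, with 3 of the 4 labelled KO libraries above all WT libraries. In MPPs it stood at 0.107, 0.241, 0.0586 and 0.597 FPKM in WT and 0.323, 0.484, 0.860 and 0.806 in labelled KO. In GFP-high HSCs WT held 0.0491, 0.0483 and 0 FPKM, from 2 reads at most, and labelled KO 0.726, 0.257 and 0.120, with no overlap. Adgre1 was the only one of the 8 whose mean was higher in labelled KO in that table, where 49.7% of all genes were. Groups that do not overlap with labelled KO on top made up 7.19% of genes there, and those with labelled KO below made up 6.7%. Of the 8, 1 (Adgre1) was of the first kind and 2 (Cd5l and Slc40a1) of the second.

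Vcam1 was even among labelled KO MPPs, at 1.34, 1.48, 1.5 and 1.44 FPKM. WT MPPs held 0.450, 0.659, 1.42 and 0.612, so that WT replicate 3 alone reached the labelled KO range. The log2 difference was 0.48 (interval 0.06 to 0.90, adjusted p = 0.250 by limma), on 92 to 444 reads a library. Vcam1 passed the filter there through all 4 labelled KO libraries and 1 WT library. In HSCs it stood at 0.534, 0.985, 0.877 and 0.389 FPKM in WT and 0.464, 0.671, 0.842 and 1.22 in labelled KO, overlapping throughout, and it was not past the filter. Single labelled KO libraries were highest in the GFP populations, at 2.80 FPKM in GFP-high MPPs and, among GFP-low cells, at 2.79 in HSCs and 1.76 in MPPs.

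Slc40a1, the iron exporter, had labelled KO above WT without overlap in 3 tables (HSCs, MPPs and GFP-low MPPs), and below WT without overlap in GFP-high HSCs. In MPPs it stood at 0.867, 1.73, 1.84 and 1.38 FPKM in WT and 2.62, 3.57, 3.49 and 2.80 in labelled KO. The means were 1.45 ± 0.437 and 3.12 ± 0.478 FPKM (SD, n = 4 each), a log2(FPKM + 1) difference of 0.76 (interval 0.37 to 1.15, adjusted p = 0.085 by limma). On recovered reads with limma's voom weights it was 1.14 with an adjusted p = 0.0392, the only call of any of the 8 genes under any setting run. In HSCs it stood at 0.676, 0.545, 0.723 and 0.969 FPKM in WT and 1.23, 1.92, 1.79 and 1.36 in labelled KO (log2 0.57, interval 0.23 to 0.92, adjusted p = 0.230 by limma). It passed the filter in HSCs only through the labelled KO libraries, all 4 of which were above 1 FPKM while no WT library was.

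In GFP-low MPPs Slc40a1 was at 2.50, 1.60 and 1.44 FPKM in WT and 5.08, 2.79 and 4.57 in labelled KO (log2 0.84, interval 0.34 to 1.35, adjusted p = 0.181 by limma). In GFP-high HSCs it was at 2.24, 1.11 and 1.20 FPKM in WT and 0.609, 0.997 and 0.846 in labelled KO (log2 -0.45, interval -0.90 to 0.01). It passed the filter there only through the WT libraries, since no labelled KO library reached 1 FPKM. Among GFP-low HSCs, and again among GFP-high MPPs, 1 labelled KO library stood far above the rest, at 5.01 and 3.83 FPKM. In GFP-low HSCs the other 5 libraries lay between 0.557 and 1.58 FPKM, and in GFP-high MPPs between 0.817 and 1.27. Without that library the log2 difference went from 0.20 to -0.45 in the HSCs and from 0.46 to 0.05 in the MPPs.

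Counts of the 8 genes in the other tables stood as follows. In MPPs 1 of the 8 (Slc40a1) had labelled KO above WT without overlap, against 3.35% of all genes, and 6 had a higher mean, against 50.2%. In GFP-low HSCs 1 (C1qb) did not overlap, against 6.29%, and 6 had a higher mean, against 50.2%. In GFP-high MPPs 1 (C1qa) did not overlap, against 6.2%, and all 8 had a higher mean, against 51.9%. In GFP-low MPPs 1 (Slc40a1) did not overlap, against 7.66%, and 5 had a higher mean, against 49.2%. The median log2 differences of the 8 were 0.43 in MPPs, -0.47 (HSCs) and 0.29 (MPPs) among GFP-high cells and 0.21 (HSCs) and 0.03 (MPPs) among GFP-low cells, beside medians of all genes from -0.0033 to 0.0056.

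Single libraries held the highest values of several of the 8 genes at once. In GFP-low HSCs labelled KO replicate 3 was the highest of its table for 7 of the 8 genes, and its summed level was 26.4 FPKM where the other 5 libraries held 6.01 to 7.56. In GFP-low MPPs labelled KO replicate 1 was the highest for 7 of the 8, with a sum of 36.0 FPKM, while labelled KO replicate 2 of that table held 5.40, the least. In GFP-high MPPs labelled KO replicate 3 was the highest for 4 genes (Mrc1, Adgre1, Vcam1 and Slc40a1), and labelled KO replicate 2 for the C1q chains and Cd5l. In MPPs labelled KO replicate 3 had a sum of 34.1 FPKM and was the highest for C1qa, C1qb, Adgre1 and Vcam1. In GFP-high HSCs it was a WT library, replicate 1, that was the highest for 4 genes (C1qa, C1qc, Cd5l and Slc40a1). The share of all genes that were highest in each of these libraries was not counted, so the counts are descriptions only.

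Markers of other mature cells were high in some of the same libraries. The summed level of 10 neutrophil genes was 28930 FPKM in labelled KO replicate 3 of GFP-low HSCs, where the WT libraries held 3626 to 3965. In labelled KO replicate 3 of GFP-high MPPs it was 23960 FPKM, where WT held 4178 to 5692. The erythroblast genes also summed highest in both, at 1323 FPKM against 111.3 to 212.1 in WT and at 1003 against 216.6 to 394.8. The monocyte genes, the nearest of these lists to macrophages, summed to 2773 FPKM against 495.2 to 633.1 in WT and to 2150 against 503.8 to 662.5. The B and plasma cell genes summed to 139.5 FPKM against 29.28 to 33.28 in WT and to 87.13 against 36.85 to 48.17. The other macrophage genes without Apoe summed to 43.74 FPKM against 25.84 to 27.4 in WT and to 46.95 against 34.44 to 45.2. The second of these was the lowest labelled KO sum of its table. The genes of the HSC list summed lowest in both libraries, at 330.4 FPKM against 446.2 to 508.4 in WT and at 496.2 against 634.8 to 725.6. The part of these mature cells in the levels of the 8 genes was not tested. In labelled KO replicate 1 of GFP-low MPPs the neutrophil sum was 9835 FPKM, beside 4571 to 8707 in WT, and the monocyte sum 1095, beside 575.8 to 817 in WT. The erythroblast sum was 891.8 FPKM there, beside 258.3 to 578.8 in WT. That of the other macrophage genes without Apoe was 55.29, beside 32.64 to 43.83 in WT. In HSCs of the first cohort the sum of the 8 genes did not overlap between the groups. The neutrophil sums overlapped there, at 171.8 to 1724 FPKM in WT and 340.3 to 663.5 in labelled KO. The monocyte sums overlapped too, at 279.3 to 385.1 and 259 to 303 FPKM. So did those of the other macrophage genes without Apoe, at 25.6 to 33.4 and 29.5 to 38.7 FPKM. The part of other mature cells was not tested there either.

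**Figure D4:**
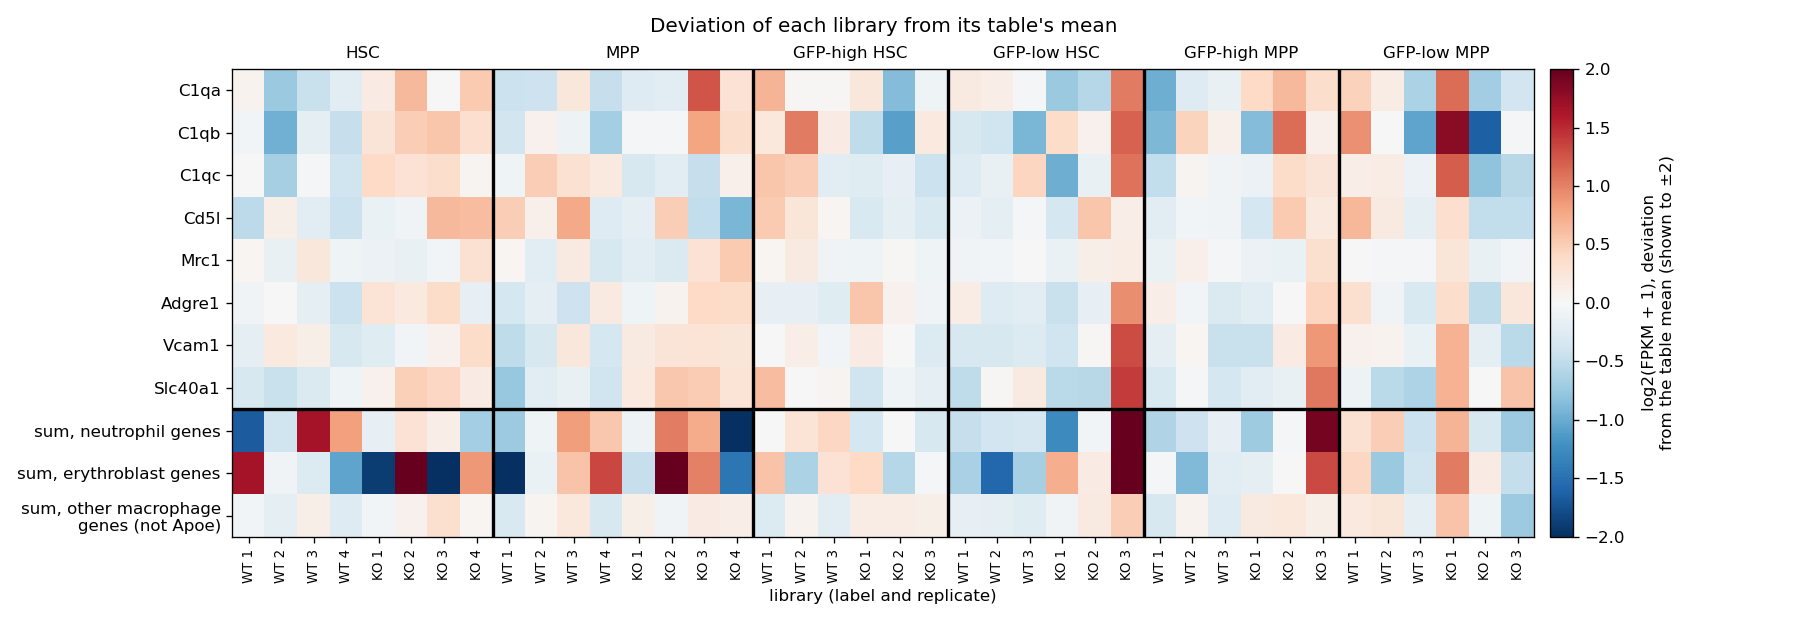
Deviation of each library (columns, by table) from its table's mean of log2(FPKM + 1), for the 8 genes and, below the line, for the summed neutrophil, erythroblast and other macrophage lists. Red is above and blue below the mean, with colours ending at a deviation of 2. Labelled KO replicate 3 of GFP-low HSCs and labelled KO replicate 1 of GFP-low MPPs are red for nearly all of the 8, and the neutrophil row is darkest in the first of these and in labelled KO replicate 3 of GFP-high MPPs.

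Since erythroid cells also express Slc40a1, the erythroblast genes are given beside it. In MPPs all 10 tested genes of the erythroblast list had a higher mean in labelled KO (median log2 0.90), though 0 passed the test. Klf1, the erythroid transcription factor, was at 24.3 ± 15.2 FPKM in WT and 47.7 ± 9.83 in labelled KO (SD, n = 4 each). Tfrc, the transferrin receptor, which takes iron up, was at 8.64 ± 1.58 and 18.0 ± 3.89 FPKM (log2 0.97, adjusted p = 0.0514 by limma). In GFP-low MPPs 7 of 9 tested erythroblast genes had a higher mean (median log2 0.42), and Klf1 was at 19.8 ± 8.04 and 54.9 ± 17.5 FPKM (SD, n = 3 each, adjusted p = 0.0905 by limma). In HSCs of the first cohort, where Slc40a1 was also higher in labelled KO, 6 of 9 tested erythroblast genes had a higher mean (median log2 0.20). There Klf1 was at 10.2 ± 2.36 and 20.7 ± 3.43 FPKM but Tfrc at 5.63 ± 1.24 and 5.78 ± 0.272. In GFP-high HSCs, where Slc40a1 was lower in labelled KO, 2 of 8 had a higher mean (median log2 -0.42). Klf1 was at 14.9 ± 6.29 and 10.6 ± 2.30 FPKM there, and Hemgn, a nuclear protein of blood progenitors and erythroid cells, at 9.88 ± 1.55 and 12.1 ± 3.94. In GFP-low HSCs all 8 tested had a higher mean, with Slc40a1 overlapping between the groups. In GFP-high MPPs, where Slc40a1 overlapped too, 7 of 8 tested had a higher mean (median log2 0.30). What share of Slc40a1 came from erythroid cells was not tested.

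The deviations of single libraries from their group means show which of the 8 genes were high in the same libraries. Over the 24 GFP libraries the deviations of C1qa went with those of C1qb (Pearson r = 0.75, Spearman rho = 0.74), of C1qc (0.79 and 0.62) and of Vcam1 (0.64 and 0.50). Over the 16 libraries of the first cohort C1qa went with C1qb (r = 0.70, rho = 0.73) but not with C1qc (0.01 and 0.18) or Cd5l (-0.28 and -0.27). C1qc and Cd5l gave r = 0.65 in the GFP cohort and -0.38 in the first. These are descriptions over libraries that share depth and scaling, given without p, and libraries high for all genes weigh heavily in them.

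The genes whose deviations were most like those of the C1q chains were also ranked, separately in the 2 cohorts. In the H2B-GFP cohort, among 11478 genes, they were led by Tifab (r = 0.86, rho = 0.81), F13a1 (r = 0.86, rho = 0.82), Lgals1 (r = 0.84, rho = 0.65), Dhx16, Dok3, BC035044, BC048403, Trmt1l, Ly86 and Cd300lb (r = 0.80, rho = 0.64). Csf1r, the receptor of macrophage colony-stimulating factor, ranked 18 there (r = 0.77, rho = 0.70) and Hmox1, which breaks down heme, ranked 27 (r = 0.73, rho = 0.64). Of the 13 other macrophage genes ranked there 8 had r above 0 and 5 below it, the latter being Cd68, Nr1h3, Axl, Spic and Cd163, with r from -0.15 to -0.05. In the first cohort, among 14904 genes, the leaders were Ormdl2 (r = 0.86, rho = 0.83), Gm8444 (r = 0.85, rho = 0.85), Vps29, Ncapg2, Anp32e, Timmdc1, Cltb, Gm13675, Eci1 and Snora20 (r = 0.79, rho = 0.72). None of the 11 other macrophage genes ranked there was among its first 100, Apoe being nearest at rank 185 (r = 0.62, rho = 0.52). Of these 9 had r above 0 and 2 below it, Cd68 (r = -0.02) and Csf1r. Csf1r, near the top in the H2B-GFP cohort, ranked 13220 in the first (r = -0.37, rho = -0.37). The first 100 genes of the 2 cohorts shared 0.

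Other macrophage genes mostly stood at a few FPKM or less, apart from Apoe, Cd68 and Hmox1. Of 24 such genes, between 9 and 12 were past the filter in a table, with 10 in HSCs and 10 in MPPs, and 0 passed the test in either direction in any table. Apoe, the lipid carrier, stood at 205 ± 39.6 FPKM in WT HSCs and 193 ± 23.6 in labelled KO, and Cd68, a lysosomal glycoprotein, at 8.09 ± 1.22 and 11.3 ± 0.917 (SD, n = 4 each). Fcna, the lectin ficolin A, was at 2.37 ± 1.56 and 3.64 ± 1.25 FPKM, and Hmox1 at 8.42 ± 3.43 and 5.50 ± 1.25. Spic, the transcription factor of iron-recycling macrophages, was at 1.02 ± 0.360 and 1.62 ± 0.656 FPKM, and Cd163, the receptor for haemoglobin bound to haptoglobin, at 1.28 ± 0.319 and 1.26 ± 0.133. Siglec1, a lectin of resident macrophages, was at 0.066 ± 0.0426 and 0.103 ± 0.0406 FPKM. Without Apoe the summed list ran from 25.6 to 33.4 FPKM in WT HSCs and from 29.5 to 38.7 in labelled KO, and it overlapped in MPPs and GFP-low MPPs too. It did not overlap in the other 3 tables, with labelled KO higher. The ranges were 29.4 to 37.6 and 38.5 to 39.7 FPKM in GFP-high HSCs, where 7 of the 8 genes had a lower mean. They were 25.8 to 27.4 and 29.3 to 43.7 in GFP-low HSCs, and 34.4 to 45.2 and 46.9 to 49.8 in GFP-high MPPs.

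The partners of these proteins showed no call either. Of 20 complement genes 8 were tested in HSCs and 10 in MPPs, and 1 and 5 of them had a higher mean in labelled KO. C3, the central complement protein, was at 0.240 FPKM in WT HSCs, and C1qbp, the C1q-binding protein, at 90.0 ± 14.6 against 87.0 ± 6.53 in labelled KO. Of 16 genes of heme and iron handling 12 were tested in both, with 6 higher by mean in HSCs and 9 in MPPs. Fth1, the ferritin heavy chain, was at 1238 ± 82.9 and 1251 ± 85.6 FPKM in HSCs. Among the 13 adhesion genes Itga4, the alpha chain of the integrin that binds VCAM1, was at 4.20 ± 0.545 and 4.97 ± 0.857 FPKM in HSCs (adjusted p = 0.650 by limma). Rises and falls past the test were 0 in all 3 lists in all 6 tables.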

How the data were processed

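Per the labels' protocols, polyA RNA of cells sorted into Trizol was amplified with SMART-Seq2 and made into libraries with Nextera XT. The 6 deposited tables hold FPKM per gene, computed by the authors, with a median-of-ratios scaling found within each table. The submitters' processing notes name STAR, DESeq2, HOMER and mm10 without roles. FPKM steps gave whole reads (within 0.01 of a whole number) for 99.994% to 99.996% of genes. Each of the 40 value columns matched a sample (0 were left over).

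Labelled KO was compared with WT within each table, and KO effects between tables, by limma 3.58.1 (R 4.3.3) on log2(FPKM + 1) with a trend, two-sided, with Benjamini-Hochberg adjustment over all tested genes. Fold changes on this scale understate changes of low genes. Genes needed 1 FPKM in at least 4 libraries (first cohort) or 3 (GFP cohort). Fits were tested on simulated data. The 8 members and all lists were chosen with earlier results of these data known. All 8 are named in every table, and of other lists the genes past the test and some of the 4 most abundant, apart from genes named for their role after their values were seen (Klf1, Tfrc, Hemgn, Fcna, Spic, Cd163, Siglec1, Csf1r, C3 and Itga4). Likeness is Pearson's r of library deviations from group means, over genes at 1 FPKM in at least 4 libraries of a cohort. Correlations of deviations between same-numbered WT and labelled KO libraries lay on both sides of 0 (-0.116 to 0.285). Between GFP-high and GFP-low libraries of one label and number all 12 were above 0 (0.136 to 0.398), though the ranges overlap. Between HSC and MPP libraries of one label and number they ran from -0.217 to 0.341. The differences of KO effects were therefore also fitted with a replicate block. Levels between tables were not compared.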

Additional observations from a re-analysis of the deposited data

Results flagged for a closer look

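C1qa in WT MPP replicate 3, at 5.37 FPKM, stood apart from the other 3 WT MPP libraries, which held 2.94 to 3.06 FPKM. It was the only one of 32 groups of 4 libraries in which the gap to the nearest library passed the 95% limit for its range, where chance alone gives about 1 in 20. Groups of 3 libraries, as in the H2B-GFP cohort, were not checked in this way. No difference of KO effects between populations passed its test for any of the 8 genes.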

How the results depend on the processing

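The number of the 8 genes called was 0 under 127 of 128 alternatives of the 6 comparisons and 3 differences of effects. The exception was limma's voom on recovered reads in MPPs, with 1 gene called, Slc40a1. The alternatives were a pseudocount of 0.1, no filter on low values, a rescaling to equal sums, sample weights, voom, a replicate block and leaving out each library. With the replicate block the count was 0 in every comparison and every difference. The labels do not say whether equal numbers pair WT with labelled KO libraries. Of 544 alternatives for single genes, 25 changed the sign of an uncalled difference. Cd5l in HSCs could not be fitted after rescaling, since it fell below the filter there. The first 10 genes most like the C1q chains kept 8 (first cohort) and 6 (H2B-GFP cohort) members with a pseudocount of 0.1, and 1 and 6 when deviations were taken from table means. Values of Mrc1, Adgre1 and Cd5l in the H2B-GFP cohort rest on as few as 0 reads in a library.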
